A study of Rattus norvegicus with 4 samples.

Results

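Nrf2 (Nfe2l2), 7 enzymes and transporters whose genes it is known to drive, and 2 metallothioneins were followed in astrocytes grown with and without neurons. The 10 genes were taken as all probes whose name or RefSeq transcript in the array files was that of Nfe2l2, Hmox1, Nqo1, Gclc, Gclm, Gsr, Txnrd1, Slc7a11, Mt1a or Mt3. They had 14 of the 41012 probes on Agilent whole rat genome arrays. Of the 14 probes, 12 stood well above background in all channels of 1 or more of the 3 kinds of RNA, which left 8 genes with a measurement among 21315. Both remaining genes, Gclm and Slc7a11, were read by 1 probe each that was not well above background in any group.

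Astrocytes came from the cortex of Wistar rats at postnatal day 1, and neurons from the hippocampus of mouse embryos at embryonic day 18. The neurons were grown on the astrocytes, and that whole co-culture is called CC. In CC-CJ the co-culture had received a cold jet, 3 streams of 1 mL of ice-cold buffer that wash neurons off the astrocyte layer. AA-CJ stands for astrocytes that never met neurons and had the same jet. Astrocytes were grown and plated in medium with 10% fetal bovine serum. Neurons were plated in medium with 2% B-27 and 0.2% beta-mercaptoethanol, a reducing agent. Part of the medium was changed 1 and 7 days after plating. For astrocytes alone the study's methods describe the conditions as similar, without listing the medium. Each of the 4 arrays carried CC-CJ in Cy3. AA-CJ was the Cy5 partner on 2 of them and CC on the other two, with no swap of dyes. Mouse mRNA was thus read by rat probes, and the 2 arrays of a kind came from different pools of animals. The labels do not say whether the CC-CJ RNA beside AA-CJ and beside CC was the same, so the 4 CC-CJ channels may hold only 2 samples. M is the log2 ratio of CC-CJ to its partner after loess on intensity. Each comparison was tested over 21314 genes by limma with Benjamini-Hochberg adjustment, and a gene is called at an adjusted p of 0.05.

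Nrf2 is a transcription factor that Keap1 holds in the cytoplasm and hands over for breakdown. Oxidants and electrophiles release it, and with small Maf proteins it binds antioxidant response elements before genes of glutathione synthesis, NADPH-dependent reduction and heme breakdown. Metallothioneins are small cysteine-rich proteins that bind zinc and copper, and the common form Mt1a is switched on through metal response elements. In the brain both systems are known to be strong in astrocytes, which supply neurons with precursors of glutathione.

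All 10 astrocyte markers examined were well above background in every channel. In CC-CJ against AA-CJ, 4 of the 10 lay above 0 and 6 below, with a median of -0.015. The water channel Aqp4 was the only 1 called, and was higher (0.51, adjusted p of 0.0312 by limma). The glutamate transporter Slc1a2 was at 0.58 (adjusted p of 0.0836 by limma), Gfap at -0.26 and Glul at -0.27. In the other comparisons 0 were called. Of 14 neuron markers tested, 9 were called lower after the jet (CC-CJ below CC), 4 higher in CC-CJ against AA-CJ (1 without the first AA-CJ array), and 8 higher in CC against AA-CJ. Their summed level was 19253 and 19854 in CC, 9115 and 9551 in AA-CJ, and 8562 to 9019 in CC-CJ. Stmn2 made up most of this sum outside CC and was at -0.001 in CC-CJ against CC. Without it, a choice made after its values were seen, the sum was 12820 and 14034 in CC, 1534 and 1566 in AA-CJ, and 2232 to 2732 in CC-CJ, so that CC-CJ lay above AA-CJ. Of 7 microglial markers tested, 4 were called lower in CC-CJ against CC (2 without the second CC array) and 2 higher in CC-CJ against AA-CJ (1 without the first AA-CJ array). In CC against AA-CJ 4 were called higher, among them the complement gene C1qa at 2.25 and Tyrobp at 1.51. In RNA of a whole culture, fewer cells of a type and less RNA per cell cannot be told apart.

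None of the 8 measured genes was called in any of the 3 comparisons. For CC-CJ versus AA-CJ this was 0 of 8 beside 3.09% of all genes tested, for CC-CJ versus CC 0 of 8 beside 2.34%, and for CC versus AA-CJ 0 of 8 beside 2.65%. At an unadjusted p of 0.05, limma gave 1 of the 8 for CC-CJ versus AA-CJ (Nfe2l2), where all genes gave 22.6%. It gave 1 for CC-CJ versus CC (Mt1a, and 0 without a dim probe that passed the filter only through CC-CJ), where all genes gave 16.9%, and 0 for CC versus AA-CJ, where all genes gave 17.8%. The limit of 2 SD on both arrays, which the methods of the study use, also took 0 of the 8, against 2.54% and 2.26% of all genes for the comparisons with CC-CJ. Here it was set from M of all probes after loess and applied to gene means. The study used its own normalization, with further criteria on replicate probes and left-over neuronal RNA. The median log2 difference over the 8 genes was -0.015 for CC-CJ versus AA-CJ, -0.012 for CC-CJ versus CC and -0.015 for CC versus AA-CJ. Over all genes it was -0.016, -0.024 and 0.001. In each comparison 4 of the 8 lay above 0 and 4 below. Against AA-CJ, Mt1a lay above 0 only through that dim probe, which also enters the medians. Its bright probe alone was at -0.01. These directions rest on loess. With each array centred on its median instead, all 8 were called lower in CC-CJ than in either partner. The median of the 8 was then -0.93 against AA-CJ and -1.03 against CC. Over all genes, the same centring called 12499 lower against AA-CJ and 13664 lower against CC, where 21314 genes were tested after loess. The centred ratio of all genes fell with brightness, from a median of 0.05 in the dimmest of 4 equal bins to -1.21 in the brightest against AA-CJ. Of the 8 genes, 3 lay in the third bin, 4 in the brightest and 1 in the second.

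**Figure D1:**
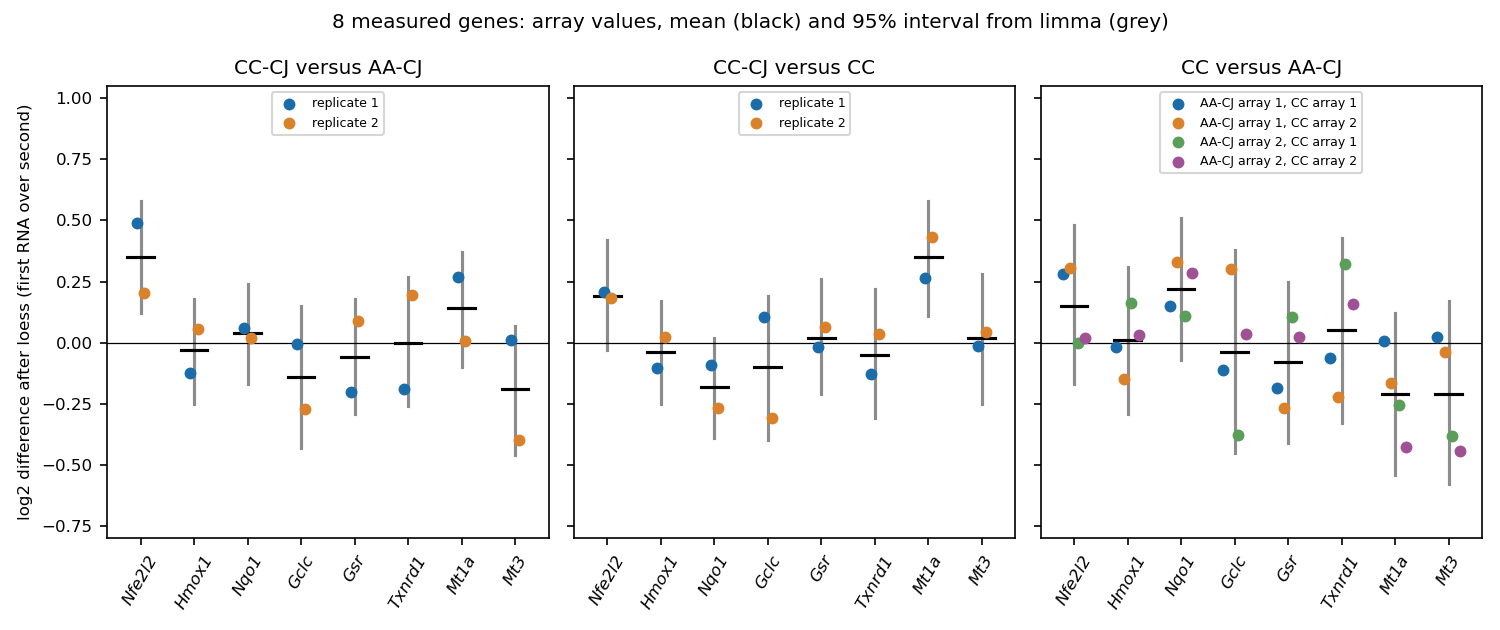
Log2 difference after loess (first RNA over second, y axis) of the 8 measured genes (x axis) in the 3 comparisons. Points are single arrays, or the 4 pairs of an AA-CJ and a CC array in the right panel, black bars are means and grey lines are 95% intervals from limma. In CC-CJ versus AA-CJ the interval of Nfe2l2 lay above 0 and in CC-CJ versus CC that of Mt1a, both without passing the adjusted p, the latter only with its dim probe B, and both below 0 with median centring in place of loess. The other intervals in the 3 panels held 0.

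Nfe2l2 encodes Nrf2 itself and was read by 1 probe on chromosome 3 (rn4, 58366802 to 58366861). Its log2 level was 12.00 and 12.26 in the 2 AA-CJ channels, between 12.43 and 12.55 in the 4 CC-CJ channels, and 12.35 and 12.25 in the 2 CC channels. The CC-CJ channels, which may be only 2 samples, lay above those of AA-CJ and of CC, whereas AA-CJ and CC overlapped. CC-CJ was in Cy3 and both others in Cy5, so that dye and group cannot be told apart here. M was 0.49 and 0.20 against AA-CJ, a mean of 0.35 (standard error 0.0959, 95% interval 0.12 to 0.58, 1.27-fold). The unadjusted p by limma over 4 arrays was 0.00925 and the adjusted p 0.0994. Against CC, M was 0.21 and 0.18, with an adjusted p of 0.366. For CC versus AA-CJ, both in Cy5, the difference was 0.15 (95% interval -0.17 to 0.48, adjusted p of 0.605). Over 15 alternatives without median centring its difference from AA-CJ stayed between 0.20 and 0.49 and was called in 0 of them. Both ends are the M of 1 AA-CJ array with the other left out. Several alternatives, such as probe choice, cannot move a gene with 1 probe. Centring on the median put it at -1.03.

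Among the genes that control Nrf2, 0 of 10 tested were called in each comparison by limma, beside 3.09%, 2.34% and 2.65% of all genes, and 1, 2 and 2 had an unadjusted p under 0.05. Keap1, which binds Nrf2 for breakdown, had M of -0.65 and 0.03 on the AA-CJ arrays and 0.09 and -0.71 on the CC arrays. One array of each kind was therefore low and the other near 0, and the mean of -0.31 in both comparisons had an interval of -0.83 to 0.21 against AA-CJ. Mafg, a small Maf partner of Nrf2, was at -0.25 against AA-CJ and -0.52 against CC (adjusted p of 0.352 and 0.143). Bach1, a repressor at the same elements, was at -0.03 and 0.07. Sqstm1 (p62), which binds Keap1, was at -0.03 and -0.21. The median of the 10 was -0.07 against AA-CJ and -0.20 against CC.

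Hmox1 is heme oxygenase, which breaks heme down to biliverdin, iron and carbon monoxide. Its probe (chromosome 19, rn4, 13969336 to 13969395) was spotted 10 times on each array, so that it was the best repeated of the set. M over the 10 spots was -0.12 with an SD of 0.028 and 0.06 with an SD of 0.041 on the 2 AA-CJ arrays, and -0.11 (SD 0.035) and 0.02 (SD 0.033) on the 2 CC arrays. Replicate arrays thus differed by more than the spots within one. The level was between 10.64 and 10.70 in CC-CJ, at 10.82 and 10.61 in AA-CJ, and at 10.74 and 10.63 in CC, so that the groups overlapped. The difference of CC-CJ from AA-CJ was -0.03 with a 95% interval of -0.25 to 0.18, or 0.843 to 1.13 times. From CC it was -0.04 (-0.25 to 0.17), and CC differed from AA-CJ by 0.01 (-0.29 to 0.31).

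Nqo1 reduces quinones with NADPH or NADH, and is a standard readout of Nrf2. Its level (probe at chromosome 19, rn4, 37256979 to 37257038) was 9.03 and 8.94 in AA-CJ, 8.95 to 9.13 in CC-CJ, and 9.22 in both CC channels. CC lay above all others. M against CC was -0.09 and -0.27, a mean of -0.18 (95% interval -0.39 to 0.02, adjusted p of 0.348 from limma over 4 arrays). CC exceeded AA-CJ in all 4 array pairs, by 0.11 to 0.33, with a mean of 0.22 (-0.07 to 0.51, adjusted p of 0.399). CC-CJ differed from AA-CJ by 0.04 (-0.17 to 0.24).

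**Figure D2:**
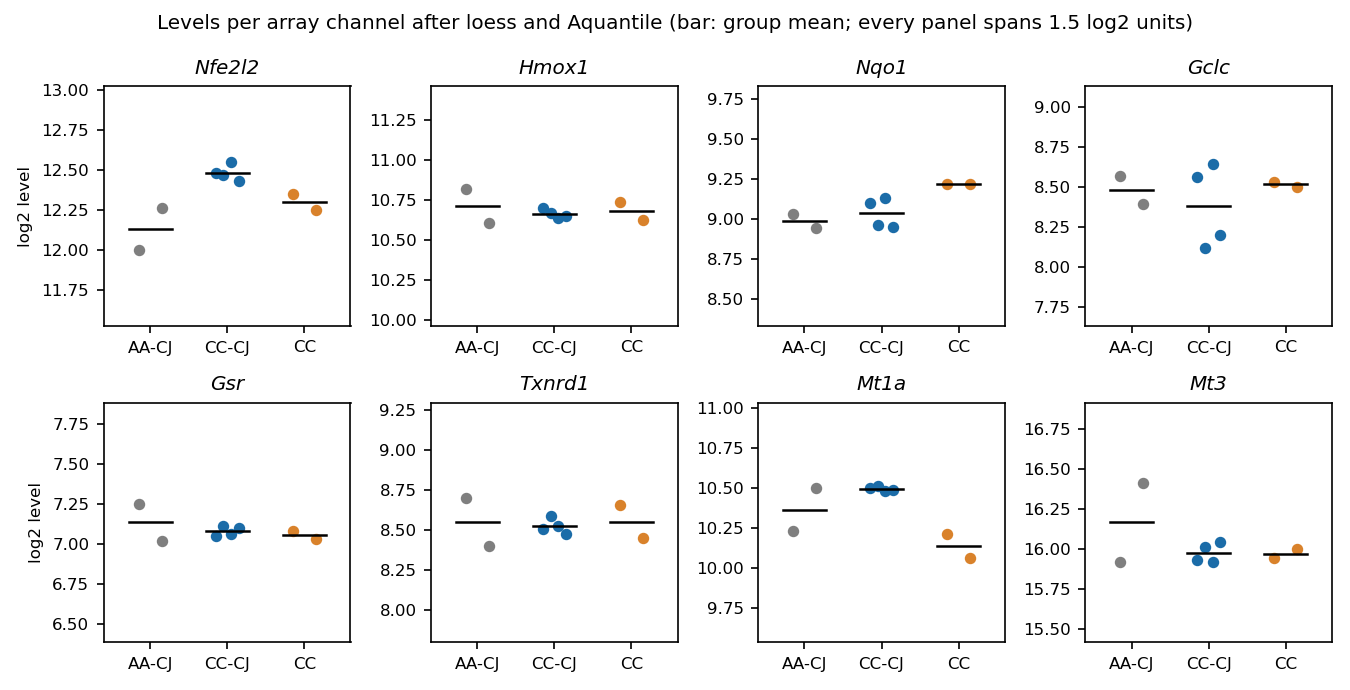
Log2 level (y axis) of each measured gene in every array channel after loess and Aquantile, by group (x axis), with the group mean as a bar. Each panel spans the same range of 1.5 log2 units around its own centre, so that heights compare groups within a gene and not genes with each other. Nfe2l2 in CC-CJ (12.43 to 12.55) and Nqo1 in CC (9.22 on both arrays) lay above their other groups. CC-CJ was always in Cy3 and the other groups in Cy5, so that dye and group cannot be told apart for CC-CJ.

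Glutathione synthesis begins with cystine uptake by Slc7a11 and goes on with glutamate-cysteine ligase, made of the catalytic subunit Gclc and the modifier Gclm. Gsr then returns oxidized glutathione to its reduced form. For Slc7a11 (probe at chromosome 2, rn4, 139248421 to 139254202) the level was 5.79 to 6.15 over the 8 channels, and for Gclm (chromosome 2, rn4, 218915215 to 218915274) it was 5.84 to 6.17. Neither was well above background in any of them, so that no fold is given. Gclc (chromosome 8, rn4, 82761662 to 82761721) was at 8.57 and 8.39 in AA-CJ and at 8.53 and 8.5 in CC. In CC-CJ it was at 8.56 and 8.64 on the arrays numbered 1 and at 8.12 and 8.20 on those numbered 2, the widest spread of the 8 genes in CC-CJ (SD 0.26). Its difference from AA-CJ was -0.14 (95% interval -0.43 to 0.15) and from CC -0.10 (-0.40 to 0.19). Gsr (chromosome 16, rn4, 62257899 to 62258792) was at 7.25 and 7.02 in AA-CJ, 7.05 to 7.11 in CC-CJ, and 7.08 and 7.03 in CC. Its groups overlapped, and the differences of CC-CJ were -0.06 (-0.29 to 0.18) from AA-CJ and 0.02 (-0.21 to 0.26) from CC.

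Txnrd1 is the cytosolic thioredoxin reductase, a selenoprotein that keeps thioredoxin reduced with NADPH. It was read by 4 probes, all on chromosome 7 of rn4 and all well above background in every channel. Against AA-CJ they did not give 1 direction. Probe A (23055528 to 23055561) had M of -0.03 and 0.75, and probe D (23056700 to 23056759) -0.04 and 0.51. Probe B (23055604 to 23055663) had -0.34 and -0.38, and probe C (23073062 to 23074940) -0.34 and -0.10. Probes A and D were thus high on the second array only, and probe B was low on both. By probe, 0 of the 12 kept probes of the 10 genes were called, beside 3.27% of all probes for CC-CJ versus AA-CJ, 2.38% for CC-CJ versus CC and 2.66% for CC versus AA-CJ. The lowest adjusted p of a Txnrd1 probe was 0.109, for probe B against AA-CJ (mean -0.36). Against CC the 4 probes had means from -0.14 to 0.07. The mean over the probes was 0.00 against AA-CJ (95% interval -0.26 to 0.27) and -0.05 against CC (-0.31 to 0.22), and the first of these averages probes that disagree.

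**Figure D3:**
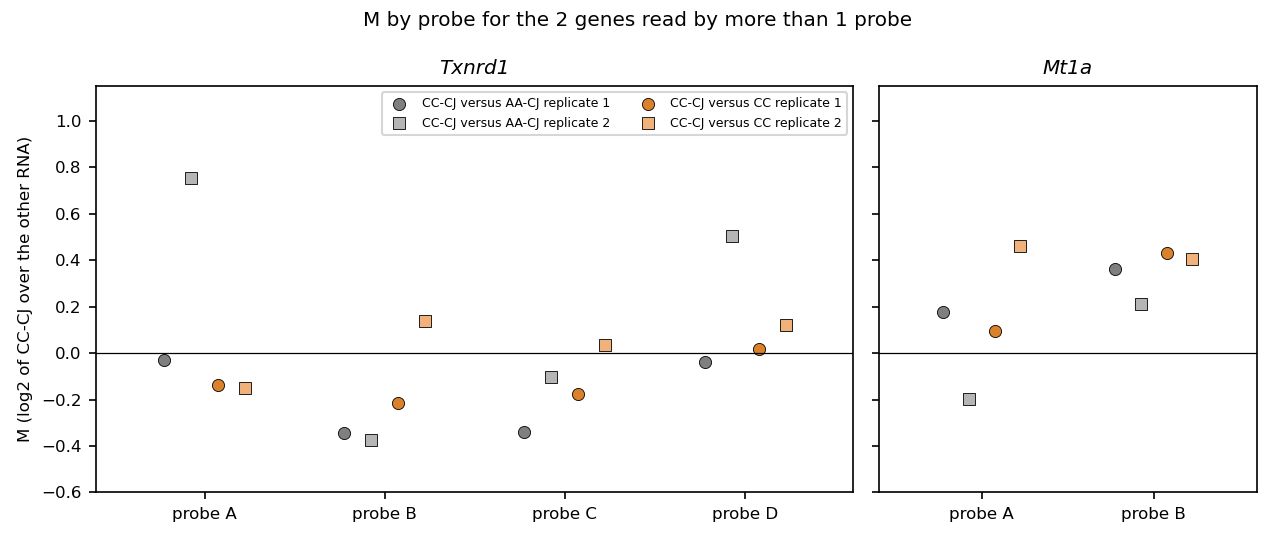
M (log2 of CC-CJ over the other RNA after loess, y axis) of each probe (x axis) of Txnrd1 and Mt1a on the 4 arrays, in grey for arrays with AA-CJ and in orange for arrays with CC, circles for replicate 1 and squares for replicate 2. Probes A and D of Txnrd1 reach 0.75 and 0.51 on the second AA-CJ array, where probe B is at -0.38.

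Promoters of 8 of the 10 genes, 9 in all since Txnrd1 has 2, were in the RefSeq table for GRCr8, as 250 bases before to 50 bases after the start. The core of the antioxidant response element was searched as TGACNNNGC on both strands, and 12.1% of 33469 promoters of this length held it. Among the 9 it was in 4, which are shown because this element is what ties a gene to Nrf2. Capitals mark the match. In Gclm and in the second promoter of Txnrd1 it reads on the opposite strand, and in Nfe2l2 it lies within the transcribed part.
Gclm, 172 bases before the start (chr2:213031955-213031979, plus strand): cggtttctGCTTAGTCAttgtcttc
Txnrd1, second promoter, 78 bases before the start (chr7:22755966-22755990, minus strand): ggatttttGCTTTGTCAttctgaca
Mt1a, 101 bases before the start (chr19:10833060-10833084, minus strand): tgcgctcgTGACTGAGCgcgggctg
Nfe2l2, base 39 from the start (chr3:81028950-81028969, minus strand): ctagccatTGACGCCGCctc
Of these 4 genes, Gclm was not measured, and the other three were not called. A match of letters does not show a bound site, and its absence from the promoters of Nqo1, Gclc, Slc7a11, Mt3 and the first of Txnrd1 says only that these letters are not within this window.

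Mt1a, the common metallothionein, had 2 probes, both on chromosome 19 of rn4. Probe A (11261706 to 11261765) was bright, at 14.19 to 14.36 in CC-CJ, 14.10 and 14.49 in AA-CJ, and 14.09 and 13.90 in CC. Its M was 0.18 and -0.20 against AA-CJ and 0.10 and 0.46 against CC. Probe B (11262268 to 11262327) was dim, at 6.62 to 6.77 in CC-CJ, 6.36 and 6.52 in AA-CJ, and 6.34 and 6.21 in CC. Probe B was not well above background in the second AA-CJ channel and the second CC channel, and passed the filter only through CC-CJ, where it was highest. Its M of 0.36 and 0.21 against AA-CJ and of 0.43 and 0.40 against CC is therefore given as a value with no test. As a gene, Mt1a had M of 0.26 and 0.43 against CC, a mean of 0.35 (95% interval 0.11 to 0.58, adjusted p of 0.157 from limma over 4 arrays), which averages in probe B. With probe A alone it was 0.28 from CC (unadjusted p of 0.0671 by limma over 4 arrays) and -0.01 from AA-CJ. Against AA-CJ the mean was 0.14 (-0.10 to 0.37), and CC differed from AA-CJ by -0.21 (-0.54 to 0.12). With median centring in place of loess the difference from CC turned to -0.30. Over the 15 alternatives without centring it lay between 0.26 and 0.81 from CC and was called in 0.

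Mt3 is the metallothionein known for its high level in brain, and was first described as an inhibitor of neurite growth. Its probe (chromosome 19, rn4, 11284638 to 11284697) was at 15.92 and 16.41 in AA-CJ, 15.92 to 16.04 in CC-CJ, and 15.94 and 16.00 in CC. The second AA-CJ channel stood above all others, and the groups overlapped. M was 0.01 and -0.40 against AA-CJ, a mean of -0.19 (95% interval -0.46 to 0.07), and -0.01 and 0.05 against CC, a mean of 0.02 (-0.25 to 0.28). Mt2A, the neighbour of Mt1a, differed by -0.02 from AA-CJ (-0.23 to 0.19) and by 0.02 from CC (-0.19 to 0.23).

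The core of the metal response element was searched as TGCACNC and TGCGCNC on both strands. One of them was in 24.2% of the 33469 promoters, 3 or more in 1.68% and 6 or more in 0.0388%. Mt1a held 6, Mt2A 4, Mt3 3 and Gclm 2, and the other 6 promoters searched held 0. Those of Mt1a and Mt3 are shown because they are the letters through which metals are known to act on these genes. Capitals mark the match, read on the gene's own strand except where the opposite strand is named.
Mt1a, 176 bases before the start (chr19:10833137-10833159, minus strand): tcccgttgTGCACACcggcgccc
Mt1a, 151 bases before (chr19:10833112-10833134, minus strand): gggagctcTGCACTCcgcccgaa
Mt1a, 133 bases before (chr19:10833094-10833116, minus strand): ccgaagagTGCGCTCggctctgc
Mt1a, 109 bases before (chr19:10833070-10833092, minus strand): aaggacgcTGCGCTCgtgactga
Mt1a, 69 bases before, match on the opposite strand (chr19:10833030-10833052, minus strand): cgccaactGAGTGCAaacccttt
Mt1a, 55 bases before (chr19:10833016-10833038, minus strand): aaacccttTGCGCCCggacccgt
Mt3, 110 bases before (chr19:10856176-10856198, minus strand): tgccgcagTGCACACgcacagag
Mt3, 81 bases before, match on the opposite strand (chr19:10856147-10856169, minus strand): cgctgtgcGTGCGCAggggcggg
Mt3, 51 bases before (chr19:10856117-10856139, minus strand): tcgctgctTGCGCGCccccgcct
The match of Mt1a at 109 bases lies beside its antioxidant core at 101 bases, and both windows share letters. Mt1a and Mt3 had means of 0.14 and -0.19 against AA-CJ, neither called. The mean of Mt1a averages in its dim probe B, and its bright probe A alone was at -0.01.

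Among 139 other genes tested of the same pathways, in 6 lists, 8 (5.76%) were called in CC-CJ versus AA-CJ, beside 3.09% of all genes, a difference that was not tested. In CC-CJ versus CC limma called 0 of them, where 0.0938% of all genes rose and 2.25% fell, and in CC versus AA-CJ 0, where 2.57% rose and 0.0798% fell. At an unadjusted p of 0.05 there were 42 of the 139 (30.2%) for CC-CJ versus AA-CJ, 32 (23%) for CC-CJ versus CC and 24 (17.3%) for CC versus AA-CJ, beside 22.6%, 16.9% and 17.8% of all genes. Of the 39 glutathione genes these were 17, 14 and 4, of 20 other targets 5, 3 and 3, of 25 thioredoxin and related enzymes 7, 5 and 8, and of 25 genes of metal handling 6, 5 and 3. After loess 6 were higher in CC-CJ and 2 were lower, whereas with median centring all 6 turned below 0. Of other Nrf2 targets, 2 of 20 tested rose and 0 fell, where 1.93% of all genes rose and 1.16% fell. Aox1, an aldehyde oxidase, was at 12.72 and 12.89 in AA-CJ, 13.45 to 13.74 in CC-CJ, and 13.17 and 13.30 in CC. Its M of 0.77 and 0.84 gave 0.80 (95% interval 0.60 to 1.00, 1.74-fold, adjusted p of 0.0102 from limma over 4 arrays). Akr1b8, an aldo-keto reductase, was at 9.25 and 9.28 in AA-CJ, 9.87 to 9.93 in CC-CJ, and 9.86 and 9.74 in CC, a difference of 0.66 (0.47 to 0.84, adjusted p of 0.0161). Srxn1, which restores peroxiredoxins and was named whatever its value, was at -0.19 (adjusted p of 0.304).

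Of the glutathione system 1 of 39 genes tested rose and 0 fell against AA-CJ, beside the same 1.93% and 1.16% of all genes. Mgst1, a membrane-bound glutathione transferase, was at 9.78 and 9.72 in AA-CJ, 10.19 to 10.37 in CC-CJ, and 10.09 and 9.88 in CC. M of 0.57 and 0.49 gave 0.53 (95% interval 0.34 to 0.72, 1.45-fold, adjusted p of 0.0277 from limma over 4 arrays). Slc3a2, the heavy chain that carries Slc7a11 to the membrane, was at 0.38 (adjusted p of 0.0705). Gss, the second enzyme of glutathione synthesis, was at 0.10. The glutathione peroxidases Gpx1 and Gpx4 were at -0.05 and 0.23 against AA-CJ and at 0.16 and 0.36 against CC (adjusted p of 0.0969 for Gpx4 against CC). The list's median was -0.043 against AA-CJ, 0.078 against CC and -0.126 for CC versus AA-CJ.

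Of the thioredoxin, peroxiredoxin and superoxide enzymes 1 of 25 tested rose and 2 fell against AA-CJ, where all genes gave 1.93% and 1.16%. Prdx6, a peroxiredoxin that works with glutathione, was at 11.90 and 12.17 in AA-CJ, 12.83 to 13.09 in CC-CJ, and 12.80 and 12.75 in CC. M of 1.2 and 0.73 gave 0.96 (95% interval 0.67 to 1.25, 1.95-fold, adjusted p of 0.0187 from limma over 4 arrays). Sod2, the manganese superoxide dismutase of mitochondria, was at 8.64 and 8.59 in AA-CJ and 7.83 to 7.90 in CC-CJ, and M of -0.74 and -0.72 gave -0.73 (-1.0 to -0.45, adjusted p of 0.031). In CC it was at 8.10 and 7.67. Msrb2, a methionine sulfoxide reductase of mitochondria, was at 8.58 and 8.40 in AA-CJ, 7.61 to 7.76 in CC-CJ, and 7.74 and 7.98 in CC, a difference of -0.77 (-1.0 to -0.53, adjusted p of 0.0189). Cytosolic Sod1 was at 0.05, Prdx1 at 0.08, catalase (Cat) at -0.09 and thioredoxin (Txn1) at -0.16. Txnip, which binds thioredoxin, had M of -0.05 and -0.81 and an adjusted p of 0.193.

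Of the genes of metal handling 2 of 25 tested rose and 0 fell against AA-CJ, with 1.93% and 1.16% over all genes. Ceruloplasmin (Cp), a copper-binding ferroxidase read by 4 probes, was at 9.12 and 9.31 in AA-CJ, 9.66 to 9.86 in CC-CJ, and 9.42 and 9.55 in CC, a difference of 0.57 (95% interval 0.38 to 0.76, adjusted p of 0.0246 from limma over 4 arrays). Slc39a4, a zinc importer, was at 9.22 and 9.29 in AA-CJ and 9.74 to 9.82 in CC-CJ, a difference of 0.55 (0.35 to 0.74, adjusted p of 0.0271). In CC it was at 9.37 and 9.44, between the 2 other groups. Mtf1, the factor that binds metal response elements, was at 0.08, and the zinc exporter Slc30a1 at 0.07. Of the genes of heme and iron 0 of 20 were called by limma in any comparison, with 6, 3 and 4 at an unadjusted p of 0.05 for CC-CJ versus AA-CJ, CC-CJ versus CC and CC versus AA-CJ (all genes 22.6%, 16.9% and 17.8%). Hmox2 was at -0.06 and the ferritin heavy chain Fth1 at -0.29 against AA-CJ (adjusted p of 0.706 and 0.245).

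**Figure D4:**
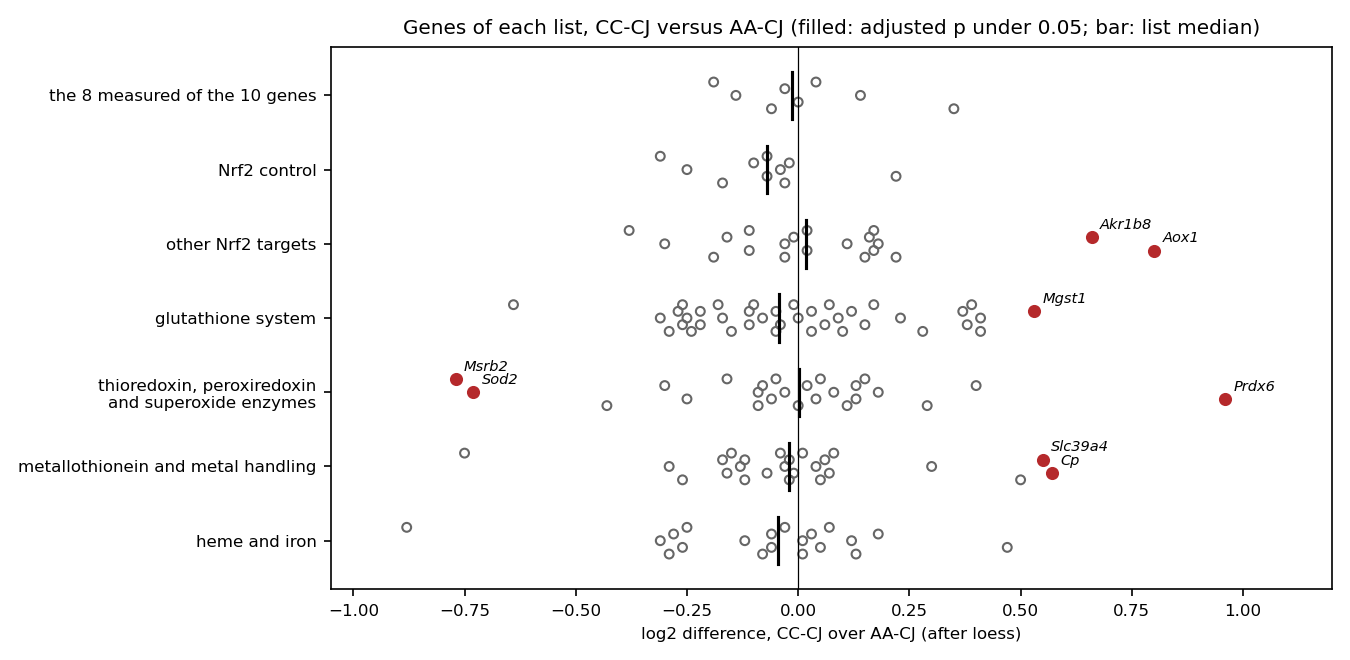
Log2 difference of CC-CJ over AA-CJ after loess (x axis) of each gene tested, by list (y axis). Filled red points passed an adjusted p of 0.05, open points did not, and black bars are the medians of the lists, which run from -0.07 to 0.018. The 6 filled points on the right lay below 0 when the arrays were centred on their medians in place of loess.

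The same 8 genes had smaller differences between CC and AA-CJ, which were both read in Cy5. These were 0.80 for Prdx6 (adjusted p of 0.0783), 0.56 for Akr1b8 (0.0585), 0.45 for Aox1 (0.124), 0.29 for Cp (0.252), 0.24 for Mgst1 (0.331), 0.17 for Slc39a4 (0.489), -0.55 for Msrb2 (0.113) and -0.68 for Sod2 (0.0982), none called. Both comparisons use the same 2 AA-CJ arrays, on which the 8 genes were called, so that their directions are not independent. The 8 were picked for being called in CC-CJ versus AA-CJ, so that smaller values elsewhere are no result in themselves. Against CC the 6 genes that rose were at 0.09 to 0.38. The part of astrocyte, neuron and microglial markers in these differences was not tested. With no swap of dyes, dye cannot be told apart from group in the 2 comparisons of CC-CJ. The 8 calls rest on 2 AA-CJ arrays. With either left out, 1 array carries the comparison, and the difference is the M of that array. These genes were named only if they moved the same way on both arrays, so their direction could not change. On the 2 arrays M was 0.66 and 0.65 for Akr1b8, 0.61 and 0.53 for Cp, 0.60 and 0.50 for Slc39a4, and -0.82 and -0.71 for Msrb2. Agilent's own log ratio of the same arrays gave 8 of 8 in the same direction, with 0 called by limma (adjusted p of 0.095 to 0.134).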

How the data were processed

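The authors deposited the scanner output of Agilent's Feature Extraction 9.5.1.1 for 4 arrays of 2 colours, with spot intensities on a linear scale, flags, and a log10 ratio of Cy5 over Cy3. A deposited table of the series holds log2 values, which the study's methods say were normalized by OLIN and OSLIN. Its column medians were -0.0251 to 0.00991, it correlated at 0.9 to 0.952 with log2 of Cy5 over Cy3 computed here, and its scaling is otherwise not stated.

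Here, in R 4.3.3 with limma 3.58.1, mean intensities were corrected by normexp (offset 50), loess (span 0.3) was fitted within arrays without control spots, and spots marked as outliers (121 to 179 an array) were dropped. Spots were averaged per probe. A probe was kept if it stood well above background in all channels of 1 or more kinds of RNA, and a gene is the mean of its kept probes. lmFit and eBayes were fitted over 4 arrays (2 residual and 4.72 prior degrees of freedom), with Benjamini-Hochberg adjustment over 21314 genes or 24864 probes. Levels are per channel after Aquantile. All arrays lay on 1 slide with 1 scan. Only 2 arrays per comparison limit the precision. Per channel, 50.1% to 62.6% of probes were well above background.

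On data simulated with the spread that limma had fitted, 200 of 21315 genes changed by a log2 of 1. Of these 96.5% were recovered for CC-CJ versus AA-CJ and 96% for CC-CJ versus CC, with 3.02% and 4.95% of calls false. The largest difference of the 8 measured genes was 0.35, and recovery at that size was not tested.

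The 10 genes, the lists (Nrf2 control, other Nrf2 targets, glutathione system, thioredoxin and related enzymes, metal handling, heme and iron) and the markers were chosen with earlier results of these data known. Named genes are the 10, fixed anchors of each list, and up to 5 called genes per list and comparison that moved the same way on both arrays. RefSeq named 10835 of the 16321 probes that carry its accessions, and Mt2A was named from its description. Blvrb was not analysed here, and 1 anchor of the lists is not reported here. Markers of oligodendrocyte lineage, endothelial cells and meningeal fibroblasts had 0 to 2 genes called in any comparison. Of 6 fibroblast markers, 5 were well above background in every channel, with a summed level of 56022 to 66917. The 10 astrocyte markers summed to 26940 to 31118. The fibroblast markers Dcn (-0.77) and Col1a2 (-0.59) were called lower in CC-CJ against CC, and Dcn (0.66) higher in CC against AA-CJ. Which cells this RNA came from was not tested. Alternatives covered background, offset, normalization, source, filter, arrays in the fit, prior, probe choice, replicate block and each array left out. locfit 1.5.9.12 gave the regression on position.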

Additional observations from a re-analysis of the deposited data

How the results depend on the processing

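No measured gene of the 10 was called under any alternative other than median centring, which called 8 of 8 lower in both comparisons of CC-CJ. It moved the median of all genes to -0.49 for CC-CJ versus AA-CJ and -0.59 for CC-CJ versus CC, and left CC versus AA-CJ at -0.014. The median over the measured genes went to -0.93, -1.03 and 0.01. Against AA-CJ it gave -1.03 for Nfe2l2, -0.90 for Nqo1, -0.80 for Txnrd1, -0.68 for Mt1a, -0.94 for Gss, -1.06 for Slc3a2, -1.31 for Gpx4, -1.49 for Prdx1, -1.65 for Sod1, -0.53 for Slc30a1, -0.39 for Akr1b8, -0.69 for Aox1, -0.57 for Mgst1, -0.44 for Prdx6, -0.40 for Cp and -0.49 for Slc39a4. Against CC it gave -1.07 for Nfe2l2, -0.34 for Gsr, -0.30 for Mt1a, -1.51 for Mt3, -1.25 for Slc3a2, -1.25 for Gpx1, -0.99 for Gpx4, -1.33 for Prdx1, -0.97 for Txn1, -1.43 for Sod1, -1.51 for Mt2A, -0.39 for Slc30a1, -1.0 for Akr1b8, -0.98 for Aox1, -0.82 for Mgst1, -1.14 for Prdx6, -0.70 for Cp and -0.69 for Slc39a4. Each of these was above 0 after loess. Against AA-CJ, centring called 7 genes of Nrf2 control, 17 other targets and 35 of glutathione. It also called 22 of thioredoxin and related enzymes, 19 of metal handling and 15 of heme and iron. Against CC these counts were 7, 16, 36, 24, 18 and 16, and in CC versus AA-CJ 1 of metal handling was called. In the same order, the lists had 10, 20, 39, 25, 25 and 20 genes tested. Over all genes, centring called 13198 against AA-CJ, 14303 against CC and 779 for CC versus AA-CJ, where 21314 were tested after loess. Whether any list exceeded all genes under centring was not tested.

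Other medians over the measured genes, for CC-CJ versus AA-CJ, CC-CJ versus CC and CC versus AA-CJ, stayed within 0.1 of 0. Agilent's log ratio gave 0.039 for the second and -0.084 for the third, the regression on position 0.042 and -0.087, the authors' values 0.021, 0.054 and -0.098, and Cy5 alone -0.052 for the third. Leaving out 1 array gave -0.015 to 0.038, -0.016 to 0.04, and -0.045 to 0.037.

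List counts against AA-CJ were 0 for other targets, glutathione, thioredoxin and metal handling with Agilent's log ratio, and 0 for glutathione and metal handling with an offset of 10. Glutathione had 2 with the regression on position, the authors' values and only 2 arrays. Heme and iron had 2 with the brightest probe, and 1 with the regression on position, the authors' values, no filter, the strict filter, the prior with a trend and only 2 arrays. Against CC, where the counts were otherwise 0, glutathione had 3 (position), 4 (authors' values) and 1 (only 2 arrays), heme and iron 1 (position, authors' values, brightest probe), metal handling 1 (position, authors' values), and Nrf2 control and thioredoxin 1 each with only 2 arrays. For CC versus AA-CJ, thioredoxin had 3 (position), 1 (authors' values) and 4 (Cy5 alone), and heme and iron 1 with Cy5 alone. Leaving out 1 array gave, against AA-CJ, 0 to 2 for other targets, glutathione, metal handling and heme and iron, and 0 to 3 for thioredoxin. Against CC it gave 0 to 1 for Nrf2 control, metal handling and thioredoxin, and 1 to 2 for glutathione, and for CC versus AA-CJ 0 to 2 for heme and iron and 0 to 1 for thioredoxin. The cause of these changes was not tested.

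Over all genes the calls were 658 (411 higher, 247 lower) for CC-CJ versus AA-CJ, 499 (20, 479) for CC-CJ versus CC and 564 (547, 17) for CC versus AA-CJ. Agilent's log ratio gave 73 (65, 8), 270 (4, 266) and 248 (248, 0). For CC-CJ versus AA-CJ an offset of 10 gave 291 (235, 56), the regression on position 1040 (623, 417), and only 2 arrays, or leaving out either CC array, 1102 (592, 510). Centring gave 13198 (699, 12499) and 14303 (639, 13664) for the comparisons of CC-CJ. The strict filter gave 287 (11, 276) for the second comparison and 348 (340, 8) for the third, and Cy5 alone 1222 (965, 257) for the third. Without the first AA-CJ array 105 (83, 22) were called in the first, and without the second CC array 203 (6, 197) in the second and 347 (327, 20) in the third. The 2 SD limit is not defined for CC versus AA-CJ, nor is a fit of only 2 arrays.

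Deviations of same-numbered arrays correlated at -0.113 in M, on which the test rests, and at 0.464 in the Cy3 channels, which all hold CC-CJ. The numbers were not taken to pair the samples, and whether arrays of a number share CC-CJ RNA is not stated. With the replicate number as a block, calls over all genes went from 658, 499 and 564 to 163, 306 and 289. Of the 8 genes called in the lists it called 2 (Aox1 and Prdx6), and an offset of 10 called 4. The block called 1 other target, 1 thioredoxin gene, 0 of glutathione and 0 of metal handling against AA-CJ, and 1 of glutathione against CC. The crossed pairing, added after the data were seen, gave 1502, 853 and 850, with 4 of glutathione, 4 of metal handling and 1 of heme and iron against AA-CJ, 1 of Nrf2 control, 3, 1 and 1 against CC, and 1 each of heme and iron, metal handling and thioredoxin for CC versus AA-CJ.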
